A study of Mus musculus with 6 samples.

Results

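The stearoyl-CoA desaturase genes Scd1, Scd2 and Scd4 and the fatty acid desaturase genes Fads1 and Fads2 were examined in hearts of TG-PKR1 and WT mice. Members were all probes other than controls whose gene name on the array was one of these 5 symbols, which gave 6 probes of 41174 in all, and 5 gene names of 27745. Scd4 had 2 probes and the other genes 1 each. Of the 6 probes, 5 were among the 20000 probes of highest median signal on which the groups were compared, and the second Scd4 probe was not.

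RNA from 3 WT and 3 TG-PKR1 hearts of male mice, 12 weeks old, was labelled with Cy3 and read on Agilent arrays, each of which held 1 heart. TG-PKR1 mice carry PKR1, a receptor for the secreted peptide prokineticin-2, under the alpha myosin heavy chain promoter, which is active in cardiomyocytes, and mice were kept on a C57BL6/J background. The samples are whole hearts, so fewer cells of a type and less RNA per cell cannot be told apart. Prokr1, which encodes PKR1, had a probe that was well above background on 0 of 6 arrays, and the arrays gave no check of the genotype.

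Desaturases put double bonds into fatty acyl chains bound to coenzyme A. The Scd enzymes make monounsaturated acids such as oleate from saturated chains and so feed the synthesis of triglycerides, phospholipids and cholesterol esters, and Scd1 is the isoform that is abundant in fat tissue and, when lipogenesis is on, in liver. Fads2 and Fads1 act in turn on dietary linoleic and alpha-linolenic acid, on the way to arachidonic acid and the omega-3 acids of membranes. Members of both families draw electrons from cytochrome b5 and its reductase in the endoplasmic reticulum.

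On mouse chromosome 19 of build mm8, whose coordinates the scanner files give, the 5 probes of Scd1, Scd2, Scd3 and Scd4 lay within 152.7 kb and the 4 probes of Fads1, Fads2 and Fads3 within 137.9 kb. The Scd1 probe was at chr19:44448208-44448267 on the minus strand, the Scd2 probe at chr19:44359845-44359904 on the plus strand, and the Scd4 probes at chr19:44399266-44399325 and chr19:44387804-44387863 on the plus strand. The Fads1 probe was at chr19:10263085-10263144 on the plus strand and the Fads2 probe at chr19:10131305-10131735 on the minus strand. The scanner files name the gene of each probe and not the exon or UTR. The Scd genes are close in sequence, and binding of one transcript to the probe of another was not tested.

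The arrays differed in brightness. The 75th percentile of the spot signals over the local background was 11.4 to 14.1 on the arrays of WT 1, TG-PKR1 2 and TG-PKR1 3, which the saturation value in their headers marks as scanned with an extended range, and 2.08 to 3.97 on the other 3. Values are log2 median signals after loess normalization to a median profile, which holds the median of each spot over the 6 arrays. A difference is the mean of the TG-PKR1 hearts minus that of the WT hearts. The level of a probe depends on how well it binds, so levels of different probes were not ranked, and the genes were compared by change.

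The 5 genes divided into Scd1, which was lower in every TG-PKR1 heart than in any WT heart, and Scd2, Scd4, Fads1 and Fads2, whose hearts overlapped between the groups. None of the 5 member probes tested passed limma at an adjusted p under 0.05, a threshold that 0.095% of all probes passed as lower and 0% as higher. At an unadjusted p under 0.05, 1 of the 5 was lower and 0 were higher, beside 1.66% and 0.715% of all probes, and 1 of the 5 was lower by more than 1 log2 unit, beside 0.455%. In each case the 1 probe was that of Scd1. SAM, the test of microarray differences that the methods of the study name, called Scd1 lower, and called 0.281% of probes lower in all. The hearts did not overlap for 1 of the 5 probes, against 2.73% of all probes with TG-PKR1 hearts below WT hearts and 2.68% with them above.

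Scd1, the main enzyme of oleate synthesis in fat, had a log2 signal of 14.47, 12.34 and 13.08 in WT 1, 2 and 3 and of 11.17, 10.37 and 10.34 in TG-PKR1 1, 2 and 3. The lowest WT heart lay 1.17 log2 units above the highest TG-PKR1 heart, and WT 1 stood highest of all. The mean was 13.29 ± 1.08 in WT and 10.63 ± 0.47 in TG-PKR1 hearts (SD, n = 3). This is a log2 difference of -2.67 (SE 0.49, 95% interval -3.78 to -1.56), a 6.36-fold lower level in TG-PKR1 hearts, with a limma p of 0.00047 that became 0.184 after Benjamini-Hochberg adjustment over 20000 probes. The two-sided exact permutation p was 0.1, the smallest that 3 hearts against 3 can give. By size the decrease was number 4 of 20000 probes, and by p the probe was number 51. The Scd1 signal spread over 2.13 log2 units within the WT hearts and over 0.82 within the TG-PKR1 hearts. Its SDs of 1.08 and 0.47 stood beside a median SD of all probes of 0.21 in either group.

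Without WT 1 the Scd1 difference was -2.08 (adjusted p = 0.236), and without WT 2 it was -3.15 (adjusted p = 0.0532). The call by SAM was lost without WT 3 or without TG-PKR1 2, and it held without each of the other 4 hearts. Among arrays with the extended range the difference was -4.11 (1 WT heart against 2 TG-PKR1 hearts) and among the others -1.54 (2 against 1), and it was -1.17 between WT 2 and TG-PKR1 1, which shared a slide. All were negative, and with scan mode as a block the difference was -2.83 (adjusted p = 0.414).

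The raw signals show what the normalization did. The median Scd1 spot signal was 50340, 912 and 4051 fluorescence units in the WT hearts and 560, 3300 and 3997 in the TG-PKR1 hearts, and no spot was saturated. WT 3 and TG-PKR1 3 were nearly equal in raw units, while their arrays differed in overall brightness over background by 3.97 against 14.1. Scd1 was 14.7 to 868 times its local background on the 6 arrays, and with background-subtracted signals under 75th percentile scaling and no loess the difference was -2.77.

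**Figure D1:**
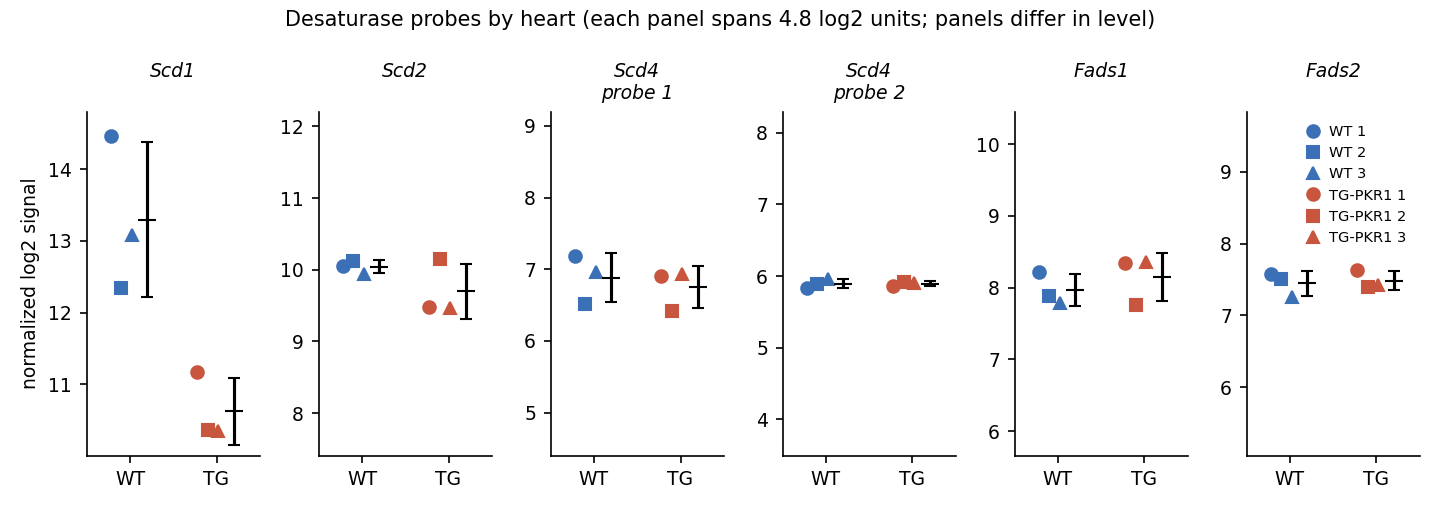
Normalized log2 signal of the 6 member probes in each heart, in panels of equal height (4.8 log2 units) at different levels; blue symbols are WT and red symbols TG-PKR1 hearts 1 to 3, and the bars give mean ± SD (n = 3). Scd1 is the panel in which the groups are apart; the second Scd4 probe was not well above background on any array.

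Scd2, a ubiquitous isoform with high expression in brain, had a log2 signal of 10.05, 10.13 and 9.94 in the WT hearts and of 9.48, 10.15 and 9.47 in the TG-PKR1 hearts. TG-PKR1 2 lay above every WT heart, and the other two lay below every WT heart. The log2 difference was -0.34 (SE 0.21, 95% interval -0.82 to 0.13; limma adjusted p = 0.9999, exact permutation p = 0.4). Without TG-PKR1 2 it was -0.57 (adjusted p = 0.686), the lowest value among the alternatives. It was -0.25 among arrays with the extended range and -0.56 among the others.

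Scd4, an isoform described in heart, gave weak signals, at 1.1 to 4.8 times local background for its first probe. Its first probe was well above background on 5 of 6 arrays, with WT 2 the exception, and had values of 7.18, 6.51 and 6.96 in the WT hearts and 6.91, 6.42 and 6.94 in the TG-PKR1 hearts. The difference on the log2 scale was -0.13 (SE 0.22, 95% interval -0.64 to 0.38; exact permutation p = 0.5). Its second probe was well above background on 0 of 6 arrays, with values between 5.83 and 5.96. The Scd4 values thus overlapped, and for the second probe no level could be read. Scd3, which is best known from skin, was well above background on 0 of 6 arrays as well.

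Fads1, which makes arachidonic acid from its immediate precursor, had a log2 signal of 8.22, 7.89 and 7.79 in the WT hearts and of 8.34, 7.76 and 8.35 in the TG-PKR1 hearts. The TG-PKR1 hearts held both the lowest and the highest value. The log2 difference was 0.19 (SE 0.21, 95% interval -0.29 to 0.66; limma adjusted p = 0.9999, exact permutation p = 0.5). It ranged from 0.083 without TG-PKR1 3 to 0.38 without TG-PKR1 2, with 0.091 without TG-PKR1 1, 0.097 without WT 3 and 0.31 without WT 1. Its sign differed between the scan settings, at -0.16 among arrays with the extended range and 0.50 among the others.

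Fads2, which catalyses the step that limits the rate of polyunsaturated fatty acid synthesis, had a log2 signal of 7.58, 7.50 and 7.25 in the WT hearts and of 7.64, 7.39 and 7.42 in the TG-PKR1 hearts. Its 6 hearts lay closer together than those of the other members among the 20000 probes. The log2 difference was 0.04 (SE 0.16, 95% interval -0.32 to 0.40; limma adjusted p = 0.9999, exact permutation p = 0.9). Its sign was not settled, since 75th percentile scaling of the median signals instead of loess gave -0.14. It was -0.17 among arrays with the extended range and 0.26 among the others. On the array of WT 2 the Fads2 spot was 1.56 times its local background, so a true change would be understated there.

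The other desaturases also overlapped between the groups. Fads3, the neighbour of Fads2, had 2 probes well above background on 6 of 6 arrays, with differences of 0.16 (SE 0.16) and 0.19 (SE 0.17). Degs1 and Degs2, which act on sphingolipids, had differences of -0.17 (SE 0.17) and 0.03 (SE 0.16). The 2 probes of Fads6 were well above background on 1 and 0 of 6 arrays. Of the 4 genes of this list among the 20000 probes (Scd4, Fads3, Degs1 and Degs2), 2 had a lower TG-PKR1 mean, and 0 were called by limma or SAM or had an unadjusted p under 0.05. The median difference was -0.05, with a range of -0.17 to 0.09 over the alternatives, beside 0.03 over all 20000 probes, of which 41.84% had a lower TG-PKR1 mean.

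**Figure D2:**
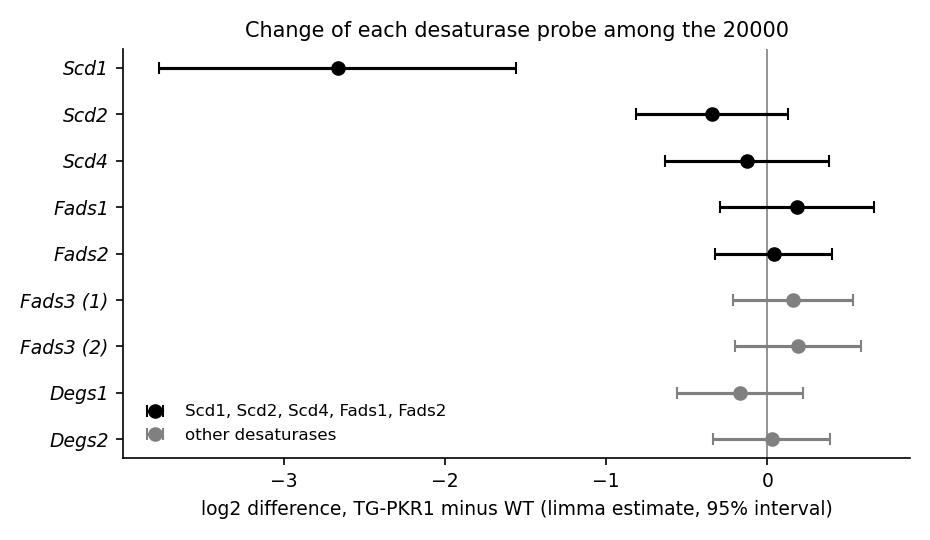
Log2 difference, TG-PKR1 minus WT, for each desaturase probe among the 20000, with the limma estimate as a point and its 95% interval as a line; black marks Scd1, Scd2, Scd4, Fads1 and Fads2, grey the other desaturases. The interval of Scd1 runs from -3.78 to -1.56, and every other interval includes 0.

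Whether Scd1, Scd2, Fads1 and Fads2 changed unequally was tested on the difference of 2 log2 signals within each heart, leaving out Scd4. A constant scaling of the whole array drops out of this difference, but an effect that varies with signal level does not. Scd1 minus Scd2 was 4.41, 2.21 and 3.13 in the WT hearts and 1.69, 0.22 and 0.88 in the TG-PKR1 hearts. The groups did not overlap, and Scd1 was lower relative to Scd2 by 2.32 log2 units in TG-PKR1 hearts (difference -2.32, SE 0.77). The corresponding change was -2.85 (SE 0.58) for Scd1 minus Fads1 and -2.71 (SE 0.62) for Scd1 minus Fads2, again without overlap. Each of these 3 pairs had a two-sided exact permutation p of 0.1, the smallest possible, and 0.2 after adjustment over the 6 pairs compared.

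None of the 3 pairs among Scd2, Fads1 and Fads2 parted the groups over all 6 hearts. The change was -0.53 (SE 0.44) for Scd2 minus Fads1, -0.38 (SE 0.28) for Scd2 minus Fads2 and 0.15 (SE 0.18) for Fads1 minus Fads2, with exact permutation p of 0.4, 0.4 and 0.5. In TG-PKR1 2, the heart with the highest Scd2 among the transgenic ones, Scd2 minus Fads1 was 2.39, above each WT heart. Without TG-PKR1 2 the changes were -0.95, -0.65 and 0.30, each with an exact permutation p of 0.1, the smallest possible. Without TG-PKR1 1 they shrank to -0.33, -0.20 and 0.13, and without TG-PKR1 3 to -0.31, -0.30 and 0.014. In both cases the exact permutation p was 0.7 for Scd2 minus Fads1 and for Scd2 minus Fads2. With 75th percentile scaling of the median signals in place of loess, Scd2 minus Fads2 was -0.11 (exact permutation p = 0.8). A p that cannot pass the threshold in this design does not show that Scd2, Fads1 and Fads2 behaved alike.

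**Figure D3:**
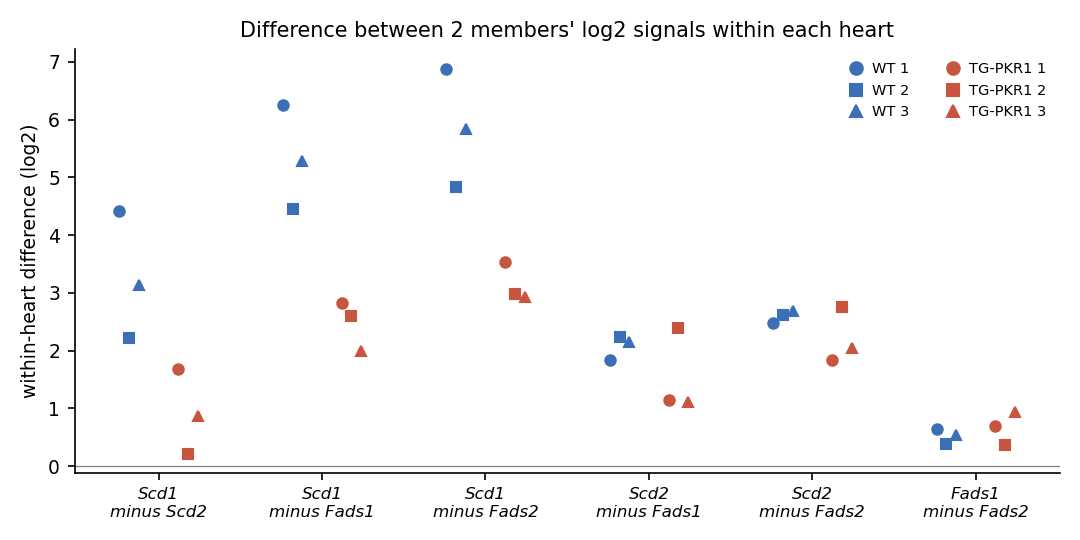
Difference between the log2 signals of 2 members within each heart, for the 6 pairs of Scd1, Scd2, Fads1 and Fads2; blue symbols are WT and red symbols TG-PKR1 hearts 1 to 3. The 3 pairs with Scd1 part the groups and the other 3 overlap; the height of a pair also reflects how the 2 probes bind and is not a ratio of transcripts.

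The steps around the desaturases were read from lists of genes, whose counts are set beside the following shares. Of all probes, 41.84% had a lower TG-PKR1 mean and 2.73% had TG-PKR1 hearts below WT hearts without overlap. limma called 0.095% of probes lower and SAM 0.281%. Substrate supply, a list drawn around the synthesis of palmitate, had 6 genes among the 20000 probes. Of these, 5 had a lower TG-PKR1 mean and 4 did not overlap, with a median of -0.80. The gene without a lower mean was Acacb, an acetyl-CoA carboxylase chosen after its values were seen, at 0.007 (SE 0.21) with overlap. Fasn, the fatty acid synthase, had a log2 signal of 16.63, 15.70 and 16.20 in the WT hearts and 14.14, 13.40 and 12.76 in the TG-PKR1 hearts. It fell by 2.75 (difference -2.75, SE 0.36, limma adjusted p = 0.0445) and was the 1 gene of this list that was called. Acaca, acetyl-CoA carboxylase, had a difference of -1.64 (SE 0.34, adjusted p = 0.317) and Acly, ATP citrate lyase, of -1.03 (SE 0.27, adjusted p = 0.783), both without overlap.

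Of 10 genes of fatty acid elongation, 7 had a lower mean, 4 did not overlap and the median was -0.27, or -0.13 with the deposited table. Elovl6, which extends palmitate to stearate, the substrate of Scd1, fell by 2.86 (difference -2.86, SE 0.36, limma adjusted p = 0.0386), from 10.82, 9.74 and 10.74 in the WT hearts to 7.95, 7.88 and 6.89 in the TG-PKR1 hearts. Elovl3, an elongase of brown fat and skin, had a difference of -2.05 (SE 0.35, adjusted p = 0.145) and was called lower by SAM, with a signal well above background on 4 of 6 arrays. In TG-PKR1 3 its value was 5.76, below the 5.91 of the second Scd4 probe there, so the difference may be understated. Hacd2, a dehydratase of the elongation cycle, had a difference of -0.80 (SE 0.21, adjusted p = 0.853), and Elovl5, which extends the products of Fads2 and was chosen after its values were seen, of -0.41 (SE 0.15), both without overlap. The limma calls of Fasn and Elovl6 were both lost with the deposited table, with 75th percentile scaling of the median signals in place of loess, with scan mode as a block, and without any 1 heart other than WT 2.

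Electron supply had a median of 0.06 over 5 genes, of which 2 had a lower mean, and the median was -0.15 to -0.02 when 1 heart was left out. limma and SAM called 0 of them, and 1 had an unadjusted limma p under 0.05. This was Cyb5b, the cytochrome b5 of the outer mitochondrial membrane, which was lower without overlap, at -0.39 (SE 0.16, limma adjusted p = 0.9999). Cyb5a, the cytochrome b5 of the endoplasmic reticulum, had a difference of -0.17 (SE 0.15) and its reductase Cyb5r3 of 0.11 (SE 0.29).

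Of 17 regulators of desaturase transcription, 11 had a lower mean, 0 were called by limma and 2 by SAM, the same 2 had an unadjusted limma p under 0.05, and the median was -0.04. It was -0.25 without TG-PKR1 2, -0.13 without WT 3, -0.11 without WT 1 and 0.06 with 75th percentile scaling of the median signals. The 2 were Thrsp, a lipogenic protein responsive to thyroid hormone, at -1.58 (SE 0.23, limma adjusted p = 0.0811), and Pparg, the main adipogenic receptor, at -0.98 (SE 0.15, adjusted p = 0.0962). Insig1, which holds the SREBP complex in the endoplasmic reticulum, had a difference of -0.40 (SE 0.25), and Srebf1, which drives Scd1, Fads1 and Fads2 and was chosen after its values were seen, of -0.30 (SE 0.22), both with overlap. Nr1h2, a liver X receptor also chosen after its values were seen, was the 1 regulator whose TG-PKR1 hearts all lay above the WT hearts, at 0.30 (SE 0.15, adjusted p = 0.9999).

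Further lists held genes that use or finish the products. Of 12 genes of acyl-CoA activation and use, 9 had a lower mean, 0 parted the groups and 0 were called by limma, by SAM or at an unadjusted p under 0.05, with a median of -0.16 that was 0.02 without WT 2. The largest differences were those of Acsl5 (-0.64, SE 0.33), Agpat2 (-0.56, SE 0.25) and Acsl3 (-0.42, SE 0.19), of which Acsl3 and Acsl5 are acyl-CoA synthetases and Agpat2 an acyltransferase of triglyceride synthesis. Of 6 genes of the peroxisomal steps that finish the long polyunsaturated acids begun by Fads2, 4 had a lower mean, 1 did not overlap (Abcd3, a peroxisomal acyl-CoA transporter chosen after its values were seen, at -0.11) and 0 were called by limma, by SAM or at an unadjusted p under 0.05, with a median of -0.09 that was 0.04 with 75th percentile scaling of the median signals. Acaa1a, a peroxisomal thiolase, had a difference of 0.21 (SE 0.18) and Hsd17b4 of -0.18 (SE 0.16).

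Most markers of fat cells were lower in TG-PKR1 hearts, as Scd1 was, and their part in its difference was not tested. Within the WT hearts Scd1 was highest in WT 1, then WT 3, then WT 2. That order was shared by 2 of 12 adipocyte and 3 of 9 brown adipocyte markers. In the lists of other cell types it was shared by 0 of 8 Schwann cell and myelin to 4 of 10 endothelial markers. Of 12 adipocyte markers among the 20000 probes, 11 had a lower mean and did not overlap, 3 were called by limma and 7 by SAM, with a median of -1.23. Over all probes, 2.73% lay below without overlap, 0.095% were called lower by limma and 0.281% by SAM. The summed adipocyte signal was 17.74 to 18.31 on the log2 scale in WT and 17.35 to 17.50 in TG-PKR1 hearts. Fabp4 and Lpl, with WT means of 16.59 and 16.36, made up most of this sum. Plin1, which coats lipid droplets, had the largest decrease of the list (difference -2.25, SE 0.23, limma adjusted p = 0.0339), followed among the called genes by Cidec (-2.02, SE 0.25, adjusted p = 0.0386) and the hormone Adipoq (-1.93, SE 0.18, adjusted p = 0.0339). None of the 12 was lower by more than Scd1. Fabp4, Lpl and Cfd, named for their high signal, had differences of -0.72 (SE 0.19), 0.02 (SE 0.21) and -1.81 (SE 0.26), and Lpl is made by cardiomyocytes too. None of the defining markers Adipoq, Plin1 and Cidec was near background in TG-PKR1 hearts, where each was well above background on all 3 arrays.

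Of 9 brown adipocyte markers, 8 had a lower mean, 5 did not overlap, 1 was called by limma and 4 by SAM, with a median of -1.09. The marker with a higher mean was Ppargc1a, chosen after its values were seen, at 0.49 (SE 0.275) with overlap. The lists share genes. Elovl3 is counted here and under elongation, and Pparg among the adipocyte markers and the regulators. The summed brown adipocyte signal was 17.79 to 18.44 in WT and 17.60 to 17.96 in TG-PKR1 hearts. Cox7a1 and Cox8b, with WT means of 17.33 and 15.78, made up most of this sum, so it says little about brown adipocytes. Ucp1, the uncoupling protein of brown fat, fell by 3.23 (difference -3.23, SE 0.42, limma adjusted p = 0.0445) and was the 1 gene of the list that was lower by more than Scd1. Cidea had a difference of -1.77 (SE 0.25), and Cox7a1 and Cox8b, which heart muscle expresses strongly, of -0.07 (SE 0.25) and -0.08 (SE 0.22). The limma calls of Plin1, Cidec, Adipoq and Ucp1 were lost where limma called 0 probes in all, which was so with the deposited table, 75th percentile scaling of the median signals in place of loess, all probes, the filter for signal well above background on 3 arrays, scan mode as a block, and without WT 1, WT 3, TG-PKR1 1 or TG-PKR1 3.

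**Figure D4:**
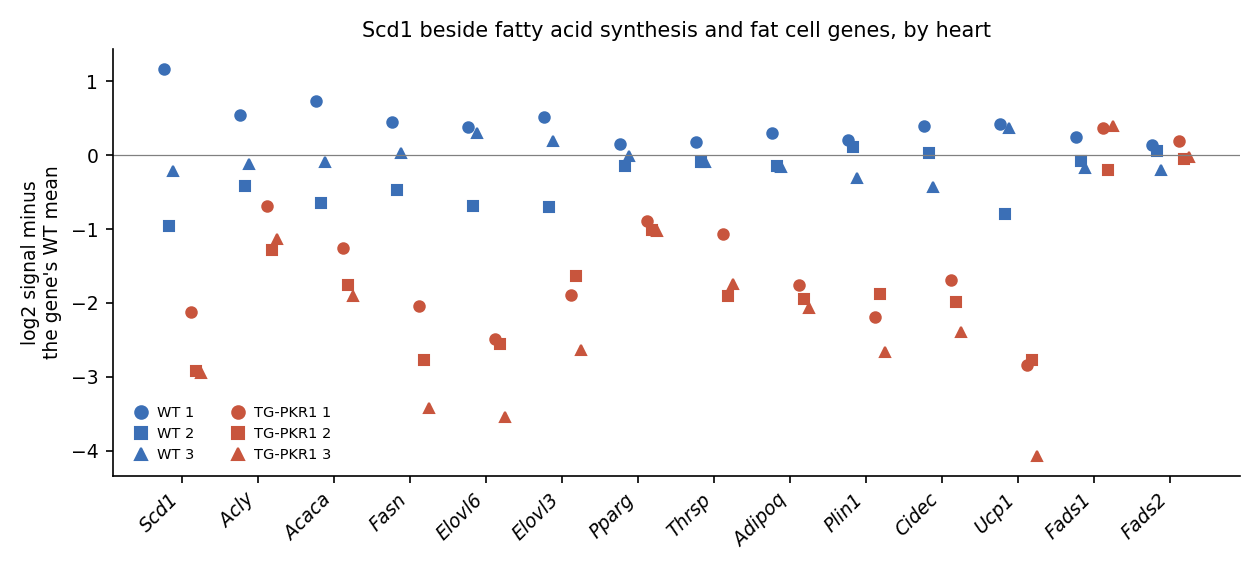
Log2 signal in each heart minus the mean of the gene over the WT hearts, for Scd1, genes of fatty acid synthesis and regulation, fat cell markers, Fads1 and Fads2; blue symbols are WT and red symbols TG-PKR1 hearts 1 to 3. TG-PKR1 hearts lie below every WT heart for each gene from Scd1 to Ucp1 and overlap with WT hearts for Fads1 and Fads2. The genes drawn are a selection. Genes of the same lists whose hearts overlapped, among them Lpl, Cox7a1, Cox8b, Insig1 and Srebf1, are not drawn.

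Markers of the other cell types had medians nearer to 0. Of 12 cardiomyocyte markers 1 had a lower mean, with a median of 0.07 and a summed signal of 19.85 to 20.32 in WT and 19.85 to 20.60 in TG-PKR1 hearts, so the labelled tissue was borne out by its defining genes. The 8 Schwann cell and myelin markers, listed because Scd2 is active in myelin-forming cells, all had a lower mean, with a median of -0.19 and 2 without overlap, and their part in the Scd2 value was not tested. Medians were -0.09 for 10 macrophage, -0.06 for 10 cardiac fibroblast and 0.05 for 10 endothelial markers. Of these, 1 parted the groups, the fibroblast marker Ddr2, a collagen receptor chosen after its values were seen, with TG-PKR1 hearts above WT hearts at 0.39, and limma and SAM called 0 genes of these 5 lists. At an unadjusted limma p under 0.05, 2 Schwann cell and myelin markers were lower and 0 genes of the other 4 lists passed.

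The genes whose signal followed each member most closely over the 6 hearts were sought among 1761 genes well above background on every array and with a range of at least 1 log2 unit. They are given as a description, because the hearts share the group difference and the scan settings. For Scd1 they were Acaca (Pearson r = 0.998), the aldehyde dehydrogenase Aldh1a7 (0.995) and the amino acid transporter Slc36a2 (0.993). Acaca, with values of 9.44, 8.05 and 8.60 in the WT hearts and 7.44, 6.94 and 6.79 in the TG-PKR1 hearts, followed Scd1 in the order of all 6 hearts.

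The other members had different closest genes. For Scd2 they were Zfp503 (0.966), Pex14, a peroxisomal import protein (0.958), and Dagla, a diacylglycerol lipase (0.945), each with TG-PKR1 2 above the other TG-PKR1 hearts as in Scd2. For Fads1 they were the ubiquitin ligase Marchf2 (0.996), Apol11b (0.977) and Cyth3 (0.971), each lowest, among TG-PKR1 hearts, in TG-PKR1 2. For Fads2 they were C1qb (0.991) and C1qa (0.981), which encode chains of complement C1q and are expressed by macrophages, and the transcript TC1660970 (0.969), which has no gene name in the tables used. C1qb had values of 9.67, 9.30 and 8.61 in the WT hearts and 9.87, 8.96 and 9.15 in the TG-PKR1 hearts, and differed between the groups by 0.13 (SE 0.32).

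**Figure D5:**
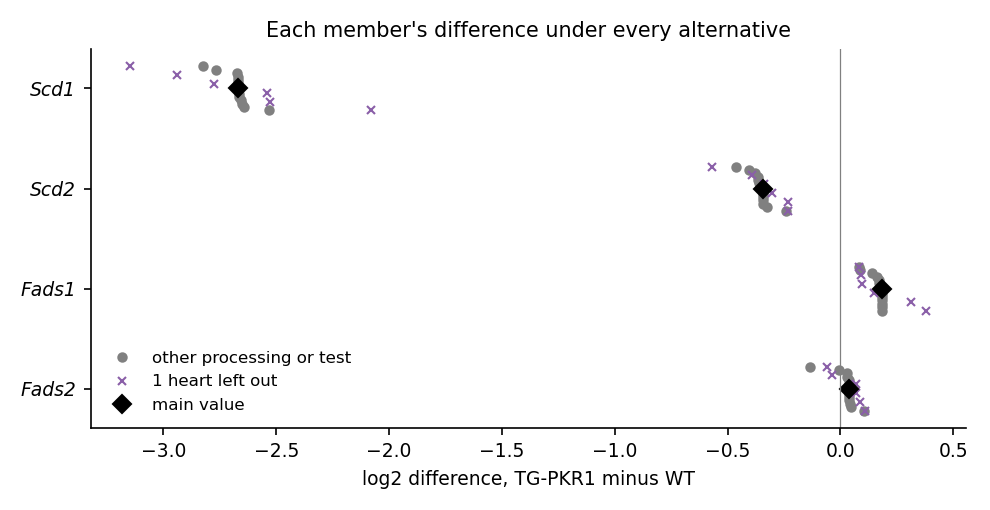
Log2 difference, TG-PKR1 minus WT, for Scd1, Scd2, Fads1 and Fads2 under each alternative; black diamonds are the values given above, grey points another processing or test, and purple crosses 1 heart left out. Scd1 stays between -3.15 and -2.08, Scd2 below 0 and Fads1 above 0, and Fads2 lies on both sides of 0.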

How the data were processed

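Whole-heart RNA of 3 WT and 3 TG-PKR1 mice was measured on 6 single-dye arrays. For every spot the authors deposited fluorescence intensity from the scanner (Agilent Feature Extraction 9.5.1.1), and a table of normalized log2 values of 19996 probes. Per the methods of the study, raw fluorescence was corrected by LOWESS against a median profile, replicate probes were averaged and 20000 probes kept by median. The log2 table correlated with the values used here at r = 0.997 to 1.00 over 19647 shared probes, and the origin of its scale is unknown.

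Here median spot signals, without background subtraction, controls or outlier spots, were log2 transformed, normalized by loess (span 0.3, 4 iterations) and averaged per probe. The 20000 probes of highest median were compared by limma 3.58.1 in R 4.3.3 (lmFit and eBayes, Benjamini-Hochberg over all, threshold 0.05). SAM used all 20 assignments at an estimated false discovery rate of 0%. Single values were compared by two-sided exact permutation tests. Probes were named by accession (15334), by name (3039) or as in the files (1627). For genes with several probes, the one of highest mean signal was used in the lists. The methods give 6 animals, 1 for each array. Procedures were tested on simulated data. Alternatives changed background correction, normalization, probe filter, source, variance model, scan block and test, and left out each heart.

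Members and lists were chosen with earlier results of these data known. Eligible to be named were all desaturase probes, the called genes and the 3 largest differences of each list, the 3 markers of highest mean signal in each fat list, and the 3 genes closest to each member. Other genes, and Ddr2, are marked as chosen after their values were seen. A gene eligible by this rule is not reported here. Figures were drawn with matplotlib 3.10.9.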

Additional observations from a re-analysis of the deposited data

How the results depend on the processing

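No paired analysis was possible because only WT 2 and TG-PKR1 1 are tied, by a shared slide, and 1 pair is too few. The difference of Scd1 kept its direction under every alternative, from -3.15 to -2.08 when 1 heart was left out, and limma never called it. SAM in place of limma called it at a difference of -2.67, which moved the count of member probes called from 0 to 1. SAM, run also without each heart and under other processing (chosen after seeing the data), called Scd1 in 4 of 6 and in 9 of 10 settings, the exception among the latter being the use of all probes, and called no other member. Fads2 changed sign with 75th percentile scaling of the median signals in place of loess (-0.14), with the deposited table (-0.0067), without WT 3 (-0.058) and without TG-PKR1 1 (-0.037), within a range of -0.058 to 0.11 when 1 heart was left out. Under these alternatives Scd2, Fads1 and all 6 pairs of members kept their direction, but Fads1 and Fads2 were each negative among the arrays with the extended range and positive among the others. The 2 pathway genes called by limma became 4 with normexp and quantile normalization and 0 with 75th percentile scaling of the median signals, all probes, a filter for signal well above background on at least 3 arrays, the deposited table, loess on the median profile itself (added after seeing the data) and scan mode as a block, and 0 to 3 when 1 heart was left out. The cause was not tested. Slide as a random block could not be fitted, since 6 arrays lay on 5 slides. Signal over background limits Scd4, Fads1 and Fads2 on the dimmer arrays, and the number of arrays limits every value.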
